A study of Mus musculus with 10 samples.

Results

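PRDM14 is a PR-domain zinc finger protein that binds DNA and supports the naive pluripotent state of mouse embryonic stem (ES) cells and the formation of primordial germ cells. It is known as a repressor that recruits Polycomb repressive complex 2 to some of its targets, and at others it sits with pluripotency factors at enhancers. Enhancers can act on genes that lie far along the chromosome, so the spacing of binding regions is part of how such a protein is described. The regions described here are the solitary PRDM14 peaks, that is, the called regions whose peak position lies more than 750000 bp from every other peak position on the same chromosome. Of 3608 peaks, 350 met this rule, or 9.70% (95% Wilson interval 8.78% to 10.7%, which covers counting error only and treats peaks as independent). The other 3258 peaks had a neighbour at or within that distance.

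The series holds 10 chromatin immunoprecipitation sequencing libraries of mouse ES cells of strain C57BL/6, each the only member of its group. The peaks come from 1 of them, an immunoprecipitation with an antibody against GFP from Prdm14-/- cells rescued by AVI-EGFP-Prdm14 (called AGP14), in which a tagged transgene takes the place of the deleted gene. The cells were grown in medium with serum and LIF, the cytokine that keeps mouse ES cells undifferentiated. No label names the promoter that drives the transgene or says whether the line is 1 clone. The other 9 libraries were not analysed here: the input of these cells, the GFP immunoprecipitation and input of Prdm14-/- cells rescued by EGFP alone, and the H3K27me3, SUZ12 and input libraries of Prdm14+/+ and Prdm14-/- cells. There was no replicate. The members were chosen by their positions, and their heights, widths and enrichments come from the same peak table, so all values below are a description with no test. The total read depth is unknown. Coordinates are those of the mm9 build, printed as deposited. No gene names or sequences are given at these positions, because the annotation and sequences at hand are of another build (GRCm38).

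The distance from a solitary peak to the nearest other peak ran from 751250 bp to 7.22 Mb, with a median of 1.12 Mb and quartiles of 0.88 and 1.69 Mb. Among the other peaks the median was 80295 bp. Distances thinned out steadily beyond the limit: 214 peaks were more than 1 Mb from the nearest other peak, 109 more than 1.5 Mb, 57 more than 2 Mb, 16 more than 3 Mb and 3 more than 5 Mb. The peak closest to the limit among the members lay on chromosome 17 at 57180110 to 57180729, 751250 bp from its neighbour and 52 reads tall. Height is the deposited maximum of the immunoprecipitation in a peak, a whole number. It is read here as the highest pileup of reads, not scaled for depth. The next 2 members by distance were neighbours of each other on chromosome 2, at 116945120 to 116946049 (135 reads) and 117697690 to 117698329 (54 reads), 752500 bp apart. Just outside, a pair on chromosome 8 lay exactly 750000 bp apart, at 18187140 to 18188269 (153 reads) and 18937260 to 18938259 (125 reads). The next pair outside, on chromosome 1 at 44669790 to 44671139 (238 reads) and 45416360 to 45417089 (67 reads), was 746020 bp apart. The plot of nearest distances shows no break at the limit, so the solitary peaks are the upper end of a continuous range.

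**Figure D1:**
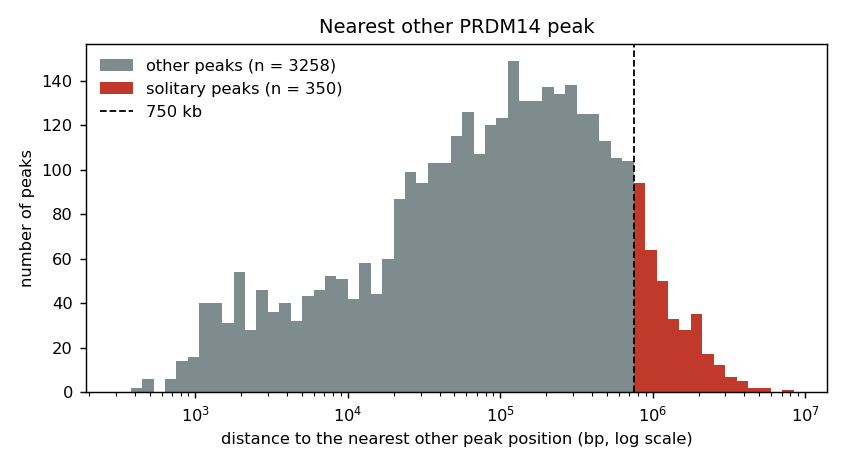
Number of peaks (y) by the distance in bp from each peak position to the nearest other peak position on its chromosome (x, log scale), for 350 solitary peaks in red and 3258 other peaks in grey. The dashed line marks 750 kb; the counts fall smoothly across it and end at 7.22 Mb.

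Solitary peaks were present on all 20 chromosomes, in different shares. On chromosome 11, 9 of 269 peaks were solitary (3.35%, Wilson interval 1.77% to 6.24%), the lowest share. Chromosome 5 followed with 13 of 276 (4.71%, 2.77% to 7.89%), and chromosome 17 with 9 of 147 (6.12%, 3.25% to 11.2%). Chromosome 3 held the most solitary peaks, 30 of 166 (18.1%, 13.0% to 24.6%), more than chromosome 2 with 28 of 274 (10.2%) or chromosome 1 with 26 of 249 (10.4%). Chromosome 16 had 17 of 112 (15.2%, 9.70% to 23.0%). The X chromosome had the highest share, 20 of 98 (20.4%, 13.6% to 29.4%), against 330 of 3510 on autosomes (9.40%, 8.48% to 10.4%). The intervals of neighbouring chromosomes in this order overlapped widely, while those of X and chromosome 3 lay above the interval of all autosomes and those of chromosomes 11 and 5 below it.

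The share on X went with the spacing of all its peaks. Neighbouring peaks on X were 1.65 Mb apart in the mean, and on single autosomes between 0.44 Mb (chromosome 11) and 0.94 Mb (chromosome 14). When the limit was scaled to each chromosome's mean spacing, 7 of the 98 X peaks were solitary (7.14%), against 10.1% on autosomes. The share on X was thus no longer the higher one. It rested on 7 peaks and no interval was worked out, so a reversed order is not shown. Chromosomes 11 and 5, with the lowest shares, had the smallest mean spacings, 0.44 and 0.54 Mb. Under the scaled limit chromosome 5 had 19 solitary peaks, against 13. The median spacing on X was 0.44 Mb, as on chromosome 3 (0.44 Mb) and only somewhat above chromosome 16 (0.36 Mb). The mean on X was thus raised over the median more than on those chromosomes, whose means were 0.91 Mb (chromosome 3) and 0.85 Mb (chromosome 16).

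**Figure D2:**
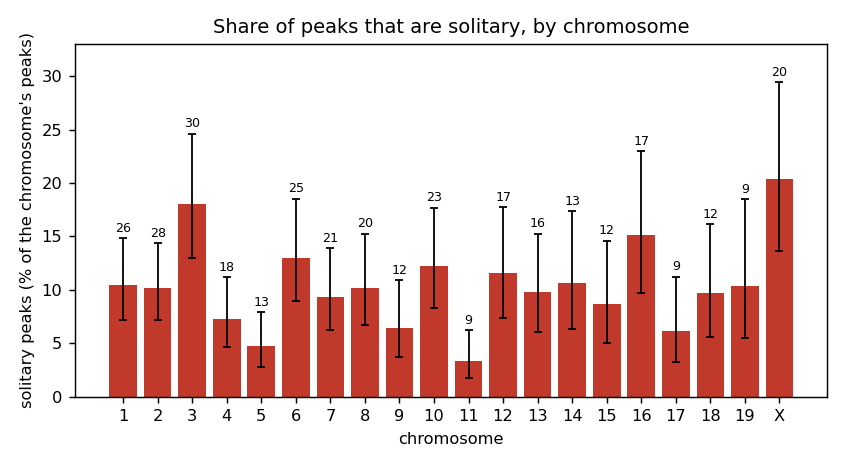
Solitary peaks as a percentage of the peaks of each chromosome (bars, from 0), with 95% Wilson intervals as error bars and the number of solitary peaks above each. X (20.4%) and chromosome 3 (18.1%) are highest, and chromosomes 11 (3.35%) and 5 (4.71%) lowest.

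The longest stretch without a PRDM14 peak was 21.5 Mb, on the X chromosome. It ran from a peak that had a close neighbour, at 101181580 to 101183699 (353 reads, enrichment 303.9), to the solitary peak at 122700500 to 122700909, which was only 53 reads tall. Enrichment is the authors' value, read here as a ratio over a control that is not named. The next longest stretch, 16.0 Mb, was also on X and ended at the solitary peak at 90909040 to 90909939, with 146 reads and an enrichment of 34.1. The third was again on X and 12.2 Mb long. It lay between peaks of 60 and 62 reads at 19933280 to 19933969 and at 32096740 to 32097439, neither of them solitary. The fourth covered 12.1 Mb of chromosome 1, between peaks at 108174790 to 108175639 (97 reads) and 120319120 to 120319939 (111 reads) that both had nearer neighbours on their other side. The fifth was 10.7 Mb of chromosome 13, from a peak at 74536260 to 74537269 (164 reads) to the solitary peak at 85285880 to 85286629 (69 reads, enrichment 63.6). An empty stretch thus did not need a solitary peak at its edge, and 2 of the 5 longest had none.

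Over the genome, 480 stretches between neighbouring peaks were longer than 1.5 Mb, and together they covered 1451 Mb, or 57.5% of the distance from the first to the last peak summed over chromosomes. A solitary peak stood at both ends of 69 of these stretches, at 1 end of 223 and at neither end of 188. Stretches over 5 Mb numbered 52, of which 8 were on X. On X, stretches over 1.5 Mb took up 86.3% of the span, and those over 5 Mb took up 51.6%. The lowest share of span in stretches over 1.5 Mb was 36.3%, on chromosome 11, and the highest autosomal share was 70.9%, on chromosome 14. Chromosome 14 had an intermediate share of solitary peaks, 13 of 122 (10.7%), although its peaks were the most widely spaced of the autosomes in the mean.

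The most isolated peak of the list was the one on X at 122700500 to 122700909. Its nearest neighbour was 7.22 Mb away, and together the empty stretches on its 2 sides came to 28.7 Mb. It was also among the weakest and narrowest, with 53 reads, an enrichment of 5.68 and a width of 409 bp. Next in distance was the last peak of chromosome 17, at 94304860 to 94305629, which had 86 reads and lay 5.50 Mb from the only neighbour it could have. The X peak at 90909040 to 90909939 was 5.30 Mb from its nearest neighbour. The first peak of chromosome 1, at 5124740 to 5125419, lay 4.90 Mb from the next and was 54 reads tall, with an enrichment of 9.96. On chromosome 8 the peak at 55161200 to 55162229 (82 reads, enrichment 74.9) had 5.53 Mb free on the left and 4.81 Mb on the right. Of these 5, only the second X peak was taller than the median of all other peaks by more than a few reads.

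Of the 350 members, 17 were the first or last peak of their chromosome and were judged on 1 side only. The other 333 had empty stretches on both sides that summed to between 1.59 and 28.7 Mb, with a median of 3.57 Mb. Some solitary peaks followed one another: 208 had a solitary peak as a direct neighbour, and 142 did not. The rule favours such rows, because a neighbour of a solitary peak needs at most 1 further stretch over 750 kb to be solitary too. The share that the rule alone would give was not worked out. The longest such row was 7 peaks on chromosome 6 between 13697750 and 27922769, over 14.2 Mb, with heights of 98, 118, 56, 110, 149, 57 and 69 reads in order of position. A row of 6 on chromosome 1, between 17921960 and 31290909, covered 13.4 Mb with heights of 116, 65, 198, 69, 69 and 72 reads. A row of 5 on chromosome 3, between 16382470 and 21835109, covered 5.45 Mb and stayed between 52 and 99 reads. None of the members of these 3 longest rows reached 200 reads, whereas shorter rows held taller peaks, such as a row of 4 on chromosome 1 between 79450550 and 82817449 with 89, 214, 61 and 51 reads.

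Solitary peaks were about as tall as the rest of the list in the middle of the range. Their heights ran from 51 to 1062 reads, with a median of 80 reads (95% order-statistic interval 76 to 86) and quartiles of 61.3 and 125.8 reads. The other peaks had a median of 83 reads (81 to 85), quartiles of 62 and 134 reads, and a range of 45 to 1226 reads. The intervals of the medians overlapped. By chromosome, the median of the solitary peaks was above that of the other peaks on 9 chromosomes and below it on 11. The lowest height, 51 reads, was shared by 12 members, of which the one with the lowest enrichment (11.7) lay on chromosome 1 at 82816850 to 82817449, and 2 of the other peaks were lower still.

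The median height was highest in the closest class and showed no steady fall beyond it. It was 89 reads (order-statistic interval 83 to 98) for peaks with a neighbour within 10 kb, 81 reads at 10 to 50 kb, 82 reads at 50 to 250 kb, 81 reads at 250 to 750 kb, 78 reads at 750 kb to 1.5 Mb and 85 reads beyond 1.5 Mb. The interval of the closest class lay above the medians of the next 4 classes. That of the farthest class, 75 to 99 reads from 109 peaks, covered the medians of all 6. Within the solitary peaks, Spearman's rho between nearest distance and height was -0.03 across 350 peaks, and among the other peaks it was also -0.03 across 3258. Peaks of 1 library share its depth and its minimum height, so these coefficients are given as a description. Solitary peaks also did not stand out from their flanks: of the 333 with a neighbour on both sides, 115 were taller than both (34.5%) and 102 lower than both (30.6%). Among other peaks these shares were 32.4% and 32.1%.

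**Figure D3:**
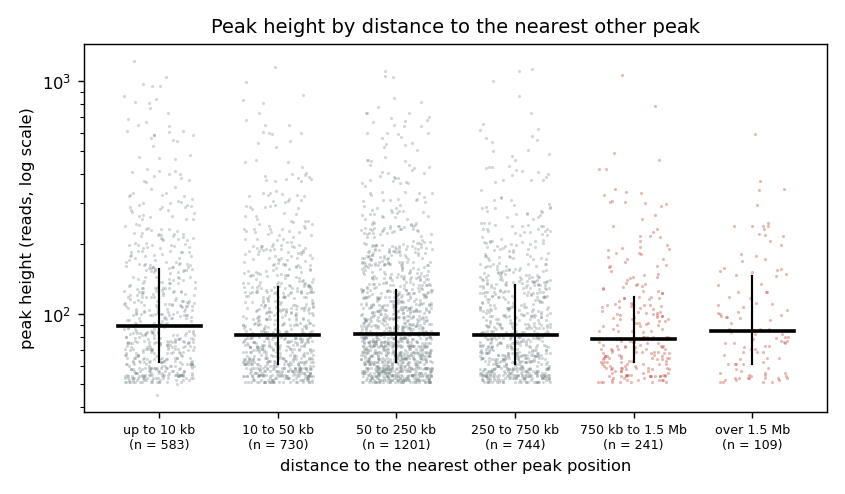
Peak height in reads (y, log scale) for every peak, grouped by the distance to the nearest other peak position (x), with solitary peaks in red; black horizontal bars are medians and vertical lines run between quartiles. The medians lie between 78 and 89 reads in all 6 groups.

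In the upper tail of height the shares were lower among solitary peaks, but the intervals overlapped. At 200 reads or more, the shares were close, with 40 of 350 solitary peaks (11.4%, Wilson interval 8.51% to 15.2%) and 406 of 3258 others (12.5%, 11.4% to 13.6%). At 500 reads or more there were 3 solitary peaks, all on chromosome 5 (0.86%, 0.29% to 2.49%), and 83 others (2.55%, 2.06% to 3.15%), with intervals that overlapped. Among the others, this share was 4.29% for peaks with a neighbour within 10 kb (25 of 583) and 1.88% at 250 to 750 kb (14 of 744). Against 9.70% of all peaks, solitary peaks were 1 of the 10 tallest (10.0%), 2 of the 50 tallest (4.00%), 5 of the 100 tallest (5.00%) and 31 of the 361 tallest (8.59%).

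Enrichment was also alike in the middle of the range. It is not apart from height: it was at most 1.30 times the height in both lists. Spearman's rho between height and enrichment was 0.62 across the solitary peaks and 0.63 across the others. The median enrichment was 58.1 in solitary peaks (order-statistic interval 51.2 to 62.3) and 55.4 in the others (53.6 to 57.4). An enrichment of at least 100 was reached by 71 solitary peaks (20.3%) and by 665 others (20.4%). At 200 or more the counts were 6 (1.71%, 0.79% to 3.69%) and 173 (5.31%, 4.59% to 6.13%). These intervals did not overlap when all other peaks were pooled. Among the others, this share was 8.06% with a neighbour within 10 kb (47 of 583) and 3.76% at 250 to 750 kb (28 of 744). The share of 3.76% lay just above the upper bound of the solitary peaks, 3.69%. Its own interval was not worked out, so a difference from that class is not shown. No solitary peak reached 300. A count of 0 of 350 allows a share of up to 0.857% when 3 counts are taken as the limit, or 1.09% as the upper Wilson bound, while 61 of the other peaks did (1.87%, 1.46% to 2.40%). Of the others at 250 to 750 kb, 10 of 744 reached 300 (1.34%, 0.73% to 2.46%). That interval overlapped the one of the solitary peaks. The 10 most enriched and the 50 most enriched peaks of the list held no solitary peak, and the 100 most enriched held 4. That absence depended on the limit, since 4 peaks of this enrichment were solitary at a distance of 500 kb, the highest of them at 631.05. The most enriched solitary peak, on chromosome 4 at 8614750 to 8616019, had an enrichment of 278.4 at 240 reads and was at rank 74 of the whole list. It was followed by a peak on chromosome 6 at 55741460 to 55742699 (277.9 at 239 reads) and another on chromosome 4 at 61967190 to 61968659 (268.7 at 238 reads). These 3 were close in height as well as in enrichment. Divided by the largest quotient of enrichment and height on their chromosome, their enrichments were 229, 239 and 221, at or near their heights. None of them was among the 10 tallest solitary peaks. The weakest, on chromosome 1 at 26744240 to 26744559, had an enrichment of 3.91 and 69 reads.

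Widths were alike. Solitary peaks had a median width of 819 bp (order-statistic interval 789 to 839 bp) and quartiles of 699 and 969 bp, and the other peaks had a median of 809 bp (799 to 819 bp) and quartiles of 699 and 979 bp. At like height the widths also matched. Up to 62 reads, both lists had a median width of 649 bp (93 solitary peaks and 854 others). At 63 to 83 reads the medians were 759 and 749 bp, at 84 to 133 reads 879 and 859 bp, and from 134 reads up 1069 bp in both (82 and 818 peaks). Spearman's rho between height and width was 0.89 across the 350 solitary peaks and 0.87 across the others. The peak position lay a median of 70.5 bp from the middle of its interval in solitary peaks and 75.5 bp in the others.

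The widest solitary peak, 2199 bp, lay on chromosome 3 at 11210950 to 11213149, with 294 reads and an enrichment of 227.0. It stood 2.11 Mb from its left and 2.98 Mb from its right neighbour. The narrowest, 319 bp, was the weak peak on chromosome 1 at 26744240 to 26744559. Only 3 solitary peaks were narrower than 500 bp (0.86%), a share close to the 0.83% of the others (27 of 3258). The remaining ones were both on X, at 43109060 to 43109509 (53 reads, enrichment 18.9, 449 bp) and at 122700500 to 122700909. All 3 had low enrichment, and the one at 122700500 split what would otherwise be a single stretch: with peaks narrower than 500 bp left out, the longest empty stretch on X grew from 21.5 to 28.7 Mb.

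At 1062 reads, the tallest solitary peak held rank 6 of the 3608 peaks by height; its place was 53857560 to 53859169 of chromosome 5. Its enrichment, 162.0, placed it at rank 273, and it was 1609 bp wide. The neighbours were 0.79 Mb away on the left, at 199 reads, and 2.30 Mb away on the right, at 57 reads. Second was another peak of chromosome 5, at 16344270 to 16345869, with 783 reads, an enrichment of 122.3 and a width of 1599 bp. It had 1.15 Mb free on the left and 4.81 Mb on the right, where both neighbours were 85 reads tall. The third, at 58124380 to 58125469 of chromosome 5, reached 592 reads over 1089 bp, with an enrichment of 136.6. Height and enrichment thus ranked these peaks differently, and all 3 stood far above their neighbours.

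From the fourth on, heights were under 500 reads. The fourth lay on chromosome 10 at 23532620 to 23533709, with 494 reads and, at 207.3, the highest enrichment of the 10 tallest. The fifth was on chromosome 14 at 120432200 to 120433499, with 460 reads and an enrichment of 110.0. The sixth, on chromosome 2 at 26297970 to 26299109, rose to 422 reads but had an enrichment of only 64.2. Its right neighbour, 2.16 Mb away, was a peak of 1002 reads, the only case among these 10 in which a neighbour was taller. The seventh was on chromosome 5 at 97276580 to 97277979, with 421 reads and an enrichment of 154.3. On chromosome 9, at 75412180 to 75413739, the eighth had 374 reads over 1559 bp, with more than 2 Mb free on each side. The ninth was the most isolated of the 10: on chromosome 5 at 82082670 to 82083879, with 346 reads and an enrichment of 180.2, it had 5.11 Mb free on the left and 4.14 Mb on the right. The tenth, at 131570140 to 131572089 of chromosome 5, had 345 reads over 1949 bp and an enrichment of 55.8, close to the median of the whole list. It lay 758200 bp from its nearest neighbour, just inside the limit.

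**Figure D4:**
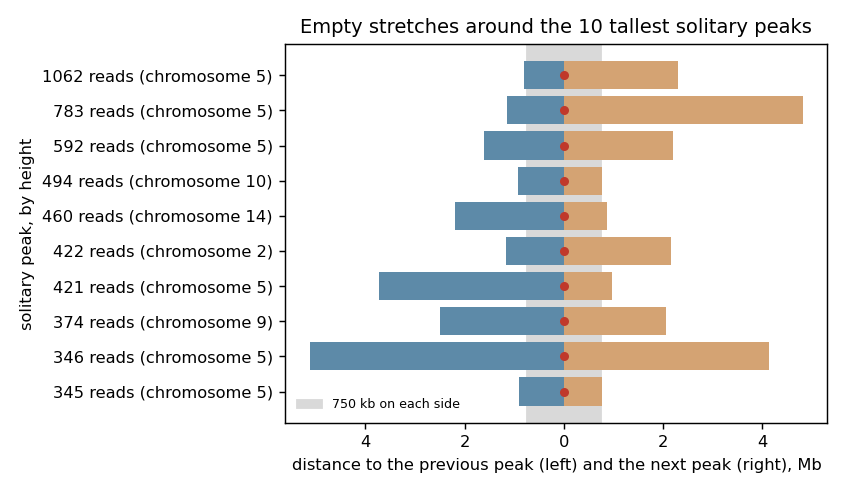
Distance in Mb from each of the 10 tallest solitary peaks (red points, tallest at the top) to the previous peak on its chromosome (blue bars to the left) and to the next (tan bars to the right); the grey band marks 750 kb on each side. Of the 10 peaks, 6 are on chromosome 5, and the one of 346 reads has over 4 Mb free on both sides.

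Chromosome 5 stood out among the tall members. It held 13 of the 350 solitary peaks (3.71%) but 6 of the 10 tallest and 6 of the 18 with at least 300 reads. In order of position its 13 solitary peaks had heights of 783, 80, 199, 1062, 592, 169, 346, 55, 60, 421, 110, 93 and 345 reads. Their median was 199 reads (order-statistic interval 80 to 592), against 76 reads (72 to 81) in the other 263 peaks of that chromosome. On the remaining chromosomes the median of the solitary peaks ran from 67 reads (chromosome 6) to 102 reads (chromosome 12). At 300 reads or more were 6 of 13 solitary peaks on chromosome 5 (46.2%, 23.2% to 70.9%), against 12 of 337 elsewhere (3.56%, 2.05% to 6.12%). Among other peaks of chromosome 5 this share was 5.32% (14 of 263). The median width of these 13 was 1049 bp and the median enrichment 113.1, above the 789 bp and 55.4 of the other peaks of chromosome 5. Both measures rose with height across the 350 solitary peaks (Spearman's rho 0.89 and 0.62), so they are not apart from the difference in height.

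The median for chromosome 5 rested on few peaks and on the limit, whereas the share of tall peaks was above that of its other peaks at each limit tried. At a distance of 500 kb, 25 of its peaks were solitary and their median height was 82 reads, against 77 reads in its other peaks. Of these 25, 7 had at least 300 reads (28.0%, 14.3% to 47.6%), against 13 of the other 251 (5.18%). At 1 Mb, 7 were solitary, the median was 169 reads, and 3 had at least 300 reads (42.9%, 15.8% to 74.95%), against 17 of the other 269 (6.32%). The solitary peaks at the 3 limits are in part the same peaks. The chromosome was singled out after its values had been seen. Without it, the median height of all solitary peaks was 79 reads, and the tallest solitary peak had 494 reads.

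**Figure D5:**
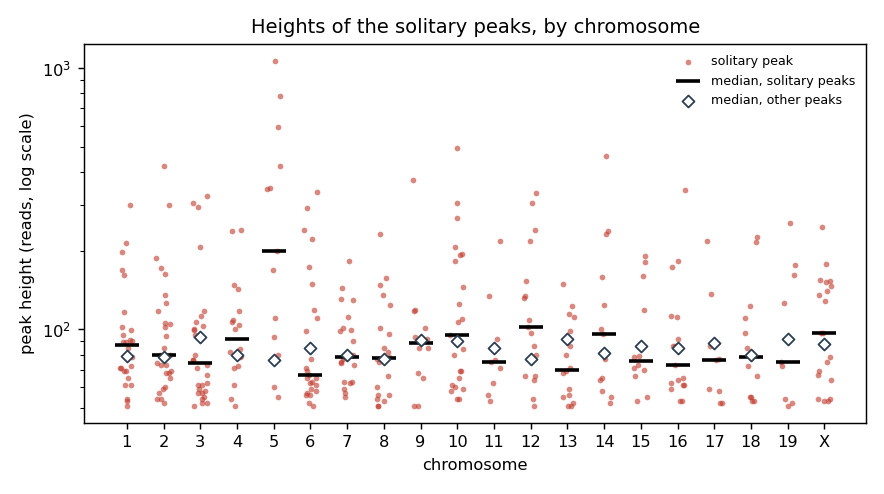
Height in reads (y, log scale) of each of the 350 solitary peaks (red points) by chromosome (x), with the median of the solitary peaks (black bar) and of the other peaks (open diamond) of the same chromosome. On chromosome 5 the medians are 199 and 76 reads; on every other chromosome the solitary median lies between 67 and 102 reads.

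The 20 solitary peaks of X were not weak as a group. Their heights ran from 53 to 246 reads with a median of 97 reads (order-statistic interval 67 to 146), against 88 reads (71 to 107) in the other 78 X peaks, which reached 775 reads. The median enrichment was 67.2 against 57.3, and the median width 839 against 834 bp. These differences were small beside the width of the intervals. The tallest, at 133571660 to 133572859, had 246 reads and an enrichment of 117.4, with 2.19 and 3.59 Mb free on its sides. It belonged to a part of the chromosome where 4 solitary peaks followed each other, with heights of 97, 246, 154 and 153 reads from 131378630 to 138873159. The highest enrichment of a solitary X peak was 160.0, at 156886730 to 156887579 with 178 reads.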

How the data were processed

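Only the peak table of the GFP immunoprecipitation from AGP14 cells was used. The submitters' processing notes name mm9 as the build. For aligner, caller, control library and depth, the entry is: not given in the sources used here. Per the file headers, the authors deposited intervals, peak positions, widths, an enrichment (read as a ratio, or fold, over a control) and a maximum of the immunoprecipitation, which is a pileup signal in whole reads. The width equalled end minus start in all 3608 peaks. The flag, a score deposited by the authors, is 3 throughout and was left aside. The BED list of this library was not analysed here.

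Distances were taken between peak positions on a chromosome, and the first and last peak of a chromosome were judged on their single neighbour. Medians carry order-statistic intervals and shares Wilson intervals, both at 95% and for counting error only. The members and the items to name (the 10 tallest, the 5 longest stretches, the 5 most isolated, the extremes and those next to the limit) were chosen with earlier results of these data known. Solitary rows, the peaks of highest enrichment and the peaks of chromosomes 5 and X were chosen after their values were seen. The distance rule was tested on 20 simulated lists. The software was Python 3.11.15 with pandas 2.3.3, NumPy 2.4.6, matplotlib 3.10.9 and SciPy 1.17.1.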

Additional observations from a re-analysis of the deposited data

How the results depend on the processing

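The limit on distance set how many peaks were solitary: 595 at 500 kb and 214 at 1 Mb, against 350. Measuring between interval edges left 350, merging peaks closer than 1 kb gave 359, and leaving out peaks narrower than 500 bp gave 347. Using just the upper part of the list by enrichment, from the median up, gave 424 of 1804 peaks. Not counting peaks at chromosome ends gave 333. With the limit scaled to each chromosome's mean spacing, the share of X peaks that were solitary moved from 20.4% to 7.14%. Dividing the enrichment by the largest quotient of enrichment and height on each chromosome took the median from 58.1 to 48, and that of the other peaks to 46, because every value is rescaled. Of 36 alternatives, 31 stayed within the interval of the value or, for counts and the longest stretch, within 1.5 times of it. The 31 include the median height on chromosome 5 at 500 kb, 82 against 199 reads, because its interval ran from 80 to 592 reads. They also include the longest stretch of 28.7 against 21.5 Mb. The count of 424 is among them too, although 424 of 1804 peaks is a much larger share than 350 of 3608. The alternatives share many peaks with the main list, so the count does not measure how stable the results are. The alternatives with chromosome 5 left out, on chromosome 5 and on enrichments of at least 300 were chosen after seeing the data. Leaving out a replicate was not possible. No paired analysis was possible because there was only 1 library per group. The unknown depth limits what the minimum height leaves out: a stretch called empty may hold regions too low to be called. Whether reads could be placed uniquely along the empty stretches, those of X included, was not examined.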
